A study of Mus musculus with 21 samples.

Results

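A total of 12268 PTBP1 crosslink sites lay within the last 2 kb of protein-coding gene spans, in 1617 genes. They made up 5.01% of the 244659 sites in the pooled iCLIP list and 6.07% of the 201954 sites inside gene bodies. A site was counted when its position fell in exactly 1 protein-coding RefSeq span (GRCm38.p6) of at least 10 kb, other than Ebf1, and less than 2 kb before the end of that span. The direction of reading was taken from the sign of the deposited score, which gives the strand of the site. In the text such sites are called 3' end sites, and the summed score of a gene's sites is its 3' end cDNA count. Only spans were used, so the division of these sites between coding exons, introns and 3' untranslated regions was not analysed here.

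PTBP1 (polypyrimidine tract binding protein 1) is an RNA-binding protein that recognises runs of uridine and cytidine. It is best known for repressing exons from flanking introns, and it also binds in 3' untranslated regions, where it can alter the choice of polyadenylation site, mRNA stability and translation.

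The series joined these sites to RNA levels in cells that lack the protein. The iCLIP lists (individual-nucleotide crosslinking and immunoprecipitation, which marks the base where protein and RNA were joined by UV light) came from splenic B cells of female C57BL/6 mice after 48 h in culture with LPS, a B cell mitogen. There were 5 replicate lists and 1 list that the authors called on the pooled replicates. The labels give no genotype for these cells, do not say whether the 5 replicates were separate mice or cultures, and do not call them germinal centre cells. RNA was sequenced from light zone (LZ) and dark zone (DZ) germinal centre B cells, the zones of selection and of division, from the spleens of C57BL/6 mice 7 days after NP-KLH in alum. Cells bearing IgD, CD3e, Gr1 or Ter119 had been depleted before sorting. The 4 groups held 4 libraries each. Control mice were CD79a+/+Ptbp1fl/fl and conditional knockout (cKO) mice were CD79acre/+Ptbp1fl/fl, so all had loxP-flanked Ptbp1 and the cKO mice alone carried Cre, in 1 Cd79a allele that is active in the B lineage. Effects of the Cre allele and of PTBP1 loss cannot be told apart. Cells of 3 to 5 mice, matched for genotype and sex, were combined for each library. The replicate number is the sort day, with males on days 1 and 2 and females on days 3 and 4. No age is given.

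Sequence could be shown for 44 of the sites, in 16 genes, because they fall inside the promoter windows of the RefSeq table (GRCm38.p6), the one sequence table that covered any of them. Each sequence below is 30 bases on the strand of the site, 5′ to 3′, with the crosslinked base at position 16, and capitals mark runs of 4 or more pyrimidines (C or T). The first is a site in the last 2 kb of Arpc4, a subunit of the actin-nucleating Arp2/3 complex, which runs on the same strand and overlaps the promoter window of the neighbouring gene Ttll3. It is 73.3% T and had 2 cDNAs, in 1 replicate list. The next is a site of 1 cDNA, in 0 replicate lists, at Tapt1, whose strand was not in the table. The other 4 are among the highest sites of the whole set and lie antisense to their genes.
Arpc4, chr6:113389078-113389107 (+): ctgtaaCCTTTTTgTCTTTTTTTTTTTTTT
Tapt1, chr5:44230929-44230958 (+): TTTTCTTCTCCCTCTTTTaaagTTCTCTgg
Stx11, chr10:12964294-12964323 (+): tgcacagctggggaccagggCCCCgCCCCg
Kctd15, chr7:34654420-34654449 (+): ccgCCCCggCCCCCgCTCCgcgcggCCCCT
Polg, chr7:79466440-79466469 (+): aggcgtctgaCTTCggatcagaagattgca
Hmces, chr6:87913903-87913932 (-): cccgCCCCCgacgtgacgtcgcgccgtcgg
The Stx11 and Kctd15 sequences hold 6.67% T and short runs of C, and the Polg sequence is 43.3% pyrimidine. Over the 38 antisense sites with sequence, in 14 genes, the median was 63.3% pyrimidine (range 36.7% to 96.7%), with T at 20%. The 5 same-strand sites, all in Arpc4, had medians of 86.7% pyrimidine and 76.7% T. The 114 same-strand sites of the first 2 kb of spans that have sequence had medians of 66.7% and 30.0%, and all 30-base windows of the promoter table a median of 50.0% pyrimidine. These windows are promoters and few of the set, so they do not describe the 3' end sites at large.

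The label of a 3' end site did not hold for a small group that included the highest sites. The strand of the gene itself was known from the promoter table for 1301 of the 1617 genes. Of the 12268 sites, 10184 were on the strand of their gene, 1989 were in the 316 genes without a known strand, and 95 were on the opposite strand. Those 95 sites, 0.924% of the sites with a known strand (0.892% in the interior of spans), lie by construction at the annotated start of their gene rather than its end. They were in 32 genes, of which 28 had no other 3' end site. Their mean score was 4.87 against 1.54 for same-strand sites, and 23.2% of them recurred at the same base in at least 2 replicate lists, against 4.77%.

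The tallest site of all was antisense to Stx11, which encodes a syntaxin of the secretory pathway, with a pooled score of 73 cDNAs, 189 nt from the edge of the span. It had 0, 0, 49, 22 and 2 cDNAs in lists 1 to 5. The site antisense to Kctd15 had 70 cDNAs (13, 0, 28, 24 and 5 in the lists). That antisense to Zfp423, a zinc finger protein, had 40 (2, 24, 4, 7 and 3) and was in all 5 lists. Those antisense to Polg, the catalytic subunit of the mitochondrial DNA polymerase, and to Hmces, a sensor of abasic sites in DNA, had 38 and 32. These antisense genes, other than Zfp423, were singled out after their values were seen. Their own transcripts ranged widely in germinal centre cells. Kctd15 did not pass the filter on low counts (at most 10 reads in any library), the average level was -1.33 log2 CPM for Zfp423, and it was 7.21 for Polg and 9.28 for Hmces. Among the 83 sites with at least 10 cDNAs, 67 were on the strand of their gene, 7 on the opposite strand and 9 in genes without a known strand. Below, counts cover all 12268 sites unless same-strand sites are named.

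**Figure D1:**
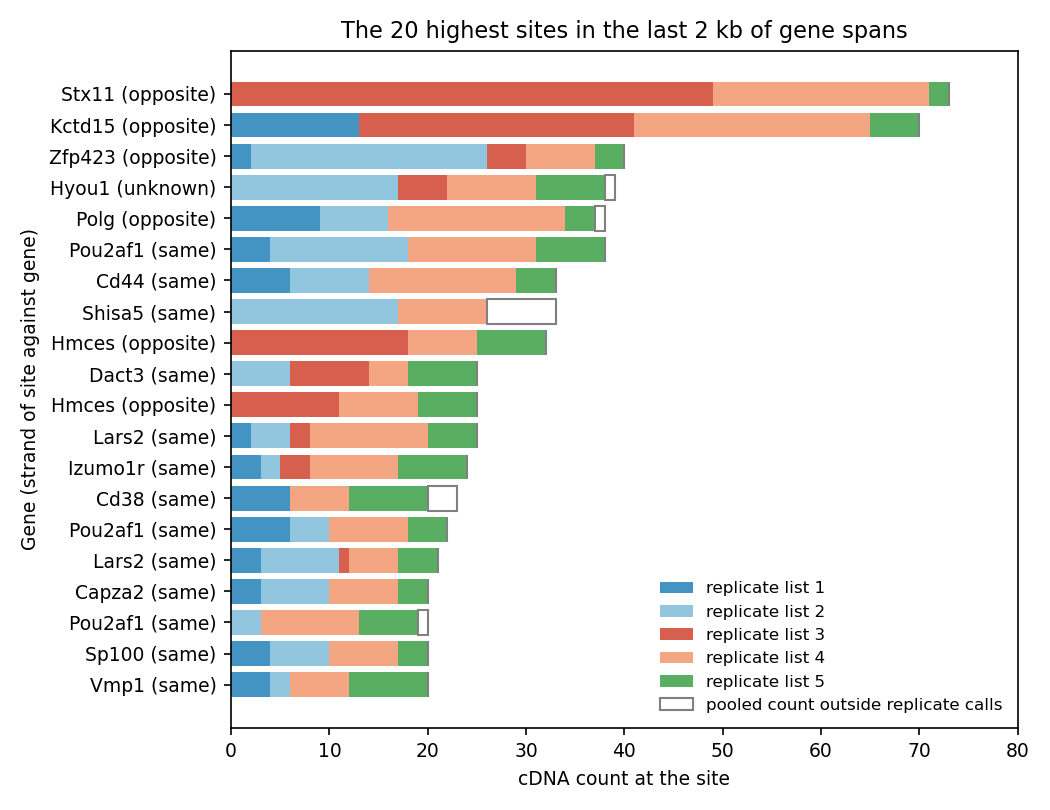
Pooled cDNA count (x axis) of the 20 highest sites in the last 2 kb of gene spans, split by replicate list, with each site's gene and its strand relative to the gene on the y axis. White segments are cDNAs of the pooled list at bases not called in a replicate list. The 3 highest sites, in Stx11, Kctd15 and Zfp423, are antisense to their genes.

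Sites were denser near the 3' end of spans than elsewhere in the same genes. Over the 6058 genes with gene-body sites, the last 2 kb held 106.2 sites per 100 kb of span that belongs to 1 gene only, the first 2 kb held 46.04, and the interior held 35.21. The last 2 kb were 2.11% of that length and held 6.07% of the sites and 6.16% of the cDNAs. In the pooled list the last 250 nt held 1854 sites (15.1% of the set), while the bin between 1750 and 2000 nt held 1134 (9.24%). The last 250 nt were the fullest bin in 0 of the 5 replicate lists. List 2 had 79 sites there against 165 between 500 and 750 nt, and list 1 had 91 against 116 between 1250 and 1500 nt. At the other end the order ran the opposite way, with 356 sites in the first 250 nt and 820 in the bin from 1750 to 2000 nt. The 2 kb limit cut through continuous signal: sites of 1 cDNA in Ddx21, Prkar1a and Irf8 lay just inside it at 1999 nt, and sites in Canx, Gabpb2 and Trim30a just outside it at 2000 nt, while Sh3bp5 and Celf1 had one on each side.

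**Figure D2:**
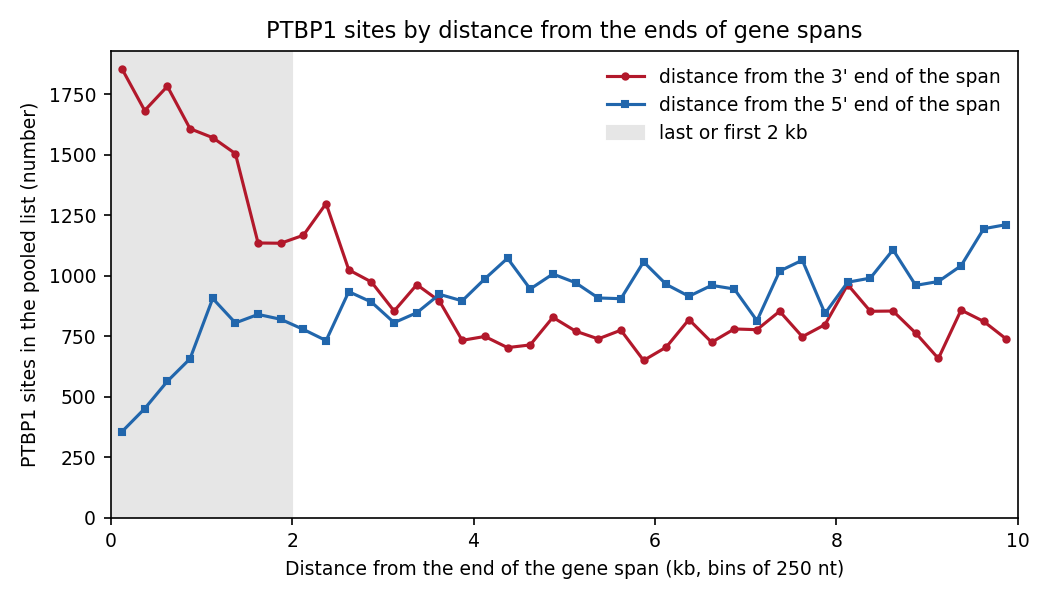
Number of PTBP1 sites in the pooled list (y axis) in bins of 250 nt against distance from the 3' end (red) or the 5' end (blue) of gene spans (x axis, kb). The red line falls from 1854 sites in the last 250 nt to 1134 at the edge of the shaded 2 kb, and the blue line starts at 356.

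The difference between the ends was seen in 4 of the 5 replicate lists and did not pass a test over lists. The share of gene-body sites at the 3' end was 5.49%, 4.63%, 4.91%, 4.64% and 5.91% in lists 1 to 5. The share at the 5' end was 2.60%, 3.11%, 5.86%, 2.57% and 3.32%. The 3' end share varied little between lists, and list 3 alone had more sites at the 5' end. The difference averaged 1.62 percentage points ± 1.53 (SD, n = 5; exact two-sided sign-flip permutation p = 0.125, with 0.0625 the smallest that 5 lists allow). Without list 3, the shallowest with 6211 sites, it was 2.27 percentage points (4 of 4 lists, exact p = 0.125, the smallest possible). For the sites on the strand of their gene it was 2.04 percentage points (4 of 5 lists, exact p = 0.125). Among sites of at least 10 cDNAs it was -0.219 percentage points (exact p = 1.0), higher at the 3' end in 1 of 5 lists. Single lists limit this test, because the highest 3' end site had 13 cDNAs in list 1 and 8 in list 5. The pooled list held 83 sites of at least 10 cDNAs at the 3' end and 26 at the 5' end. List 3 also had the highest antisense share among its 3' end sites of known strand, 7.04% against 2.15% to 3.55% in the others.

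Most 3' end sites were low and were called only in the pooled list. The median score was 1 cDNA and 74.6% of sites had 1, close to the 74.2% of interior sites. Sites of at least 10 cDNAs were 0.677% of the 3' end set, 0.482% of the 5' end set and 0.315% of interior sites. A test over lists could not settle whether mean heights differed, because 5 lists allow no p under 0.0625. The 3' end mean was 0.0981 cDNAs above the interior mean (higher in 4 of 5 lists, exact two-sided permutation p = 0.4375). The 3' end mean minus the 5' end mean was -0.0726, although it was positive in 4 of 5 lists (exact permutation p = 1.0). At the same base, 73.1% of sites were in 0 replicate lists, against 63.4% at the 5' end and 65.0% in the interior. A further 22.4% were in 1 list and 554 (4.52%) in at least 2, the latter against 4.39% at the 5' end and 3.67% in the interior. Allowing 5 nt raised the share in at least 2 lists to 12.4%, against 12.2% at the 5' end and 11.8% in the interior. Allowing 15 nt raised it to 15.9%, against 16.6% and 16.3%. Support followed height. None of the 9146 sites with 1 cDNA was in 2 lists, and 12% of those with 2 to 4, 52.2% of those with 5 to 9 and 94.0% of those with 10 or more were. The pooled score sums the lists, so a site of 1 cDNA cannot be in 2 lists, and the relation of support to height is in part built in. Pairs of lists shared 18.1% to 28.7% of the positions of the smaller list.

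Only 9 sites were in all 5 lists, and 7 of these were in Lars2 and Pou2af1. Lars2, the mitochondrial leucyl-tRNA synthetase, had 5 of them (25, 21, 15, 14 and 9 cDNAs) between 522 and 716 nt from its end. Pou2af1, the B cell coactivator OBF-1 that works with octamer-binding proteins, had 2 (18 and 9 cDNAs). The others were the antisense site at Zfp423 and a site of 24 cDNAs in Izumo1r, a folate receptor family member whose own RNA averaged 0.93 log2 CPM in germinal centre cells.

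Signal was concentrated in few genes. The 12 genes with the largest 3' end cDNA counts held 15.2% of the 18998 cDNAs, and 150 genes held 1 of every 2. The median gene had 4 sites and 5 cDNAs, 131 genes had 1 site, and 22 had at least 50. Sites within 15 nt of each other formed 3326 clusters, the largest of 99 sites. In 254 genes every gene-body site was at the 3' end, and over all 1617 genes the median share was 24.4%. At gene level, 202 genes had 3' end sites in at least 2 replicate lists, 11 in all 5 and 1021 in none. Chromosome 11 held 1131 sites in 141 genes and chromosome 9 held 1045 in 96. Of all sites, 423 (3.45%) also lay in a span that is not protein-coding, 368 of them in a long noncoding RNA.

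Pou2af1 (chr9:51213690-51240079) stood first, with 271 sites in 14 clusters and 879 cDNAs, of which 85, 138, 7, 240 and 173 were in lists 1 to 5. Per 10000 gene-body cDNAs of a list these were 46.2, 47.3, 14, 48.1 and 73.7, so list 3 was low and list 5 high. The last 2 kb held 50.9% of the gene's sites. Lars2 (chr9:123366927-123462675) had 80 sites and 355 cDNAs (24, 85, 29, 109 and 67 in the lists), all between 505 and 877 nt from its end, and 97.6% of its sites were there. Per 10000 it was highest in list 3, at 58.0, against 13.0 to 29.1 in the others.

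Cd38 and Fcgr2b came next. Cd38 (chr5:43868809-43912374), an ectoenzyme that consumes NAD, had 144 sites and 290 cDNAs (49, 23, 7, 53 and 51 in lists 1 to 5). Fcgr2b (chr1:170960558-170976071), the inhibitory Fc receptor for IgG, had 117 sites and 240 cDNAs (8, 73, 12, 49 and 36), with 71.3% of its sites in the last 2 kb. Eif4h, a cofactor of the eIF4A helicase, had 93 sites and 202 cDNAs, 90.3% of its sites. Scd1, a fatty acid desaturase, had 156 cDNAs, the endoplasmic reticulum protein Shisa5 had 151, and Capza2, an actin capping subunit, had 133. Prkcb, a protein kinase C that links the B cell receptor to NF-kB, had 89 sites and 130 cDNAs, and these sites were 4.69% of its 1897 gene-body sites. The galactosyltransferase B4galt1, the chromatin protein Nucks1 and the chaperone Hyou1 had 124, 121 and 108. Eif4h, Scd1, Shisa5 and Capza2 had 0 cDNAs in list 3, and Nucks1 had 0 in lists 2 and 3.

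**Figure D3:**
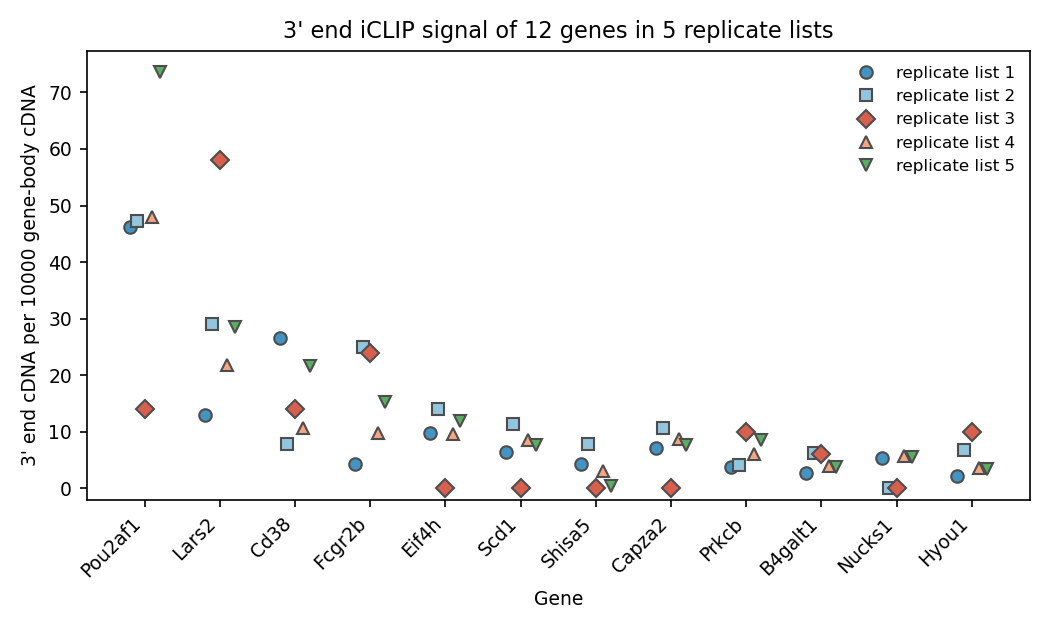
3' end cDNA count per 10000 gene-body cDNAs (y axis) in each of the 5 replicate lists for the 12 genes with the largest pooled 3' end counts (x axis). Pou2af1 ranges from 14 in list 3 to 73.7 in list 5, and Lars2 from 13.0 in list 1 to 58.0 in list 3.

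The RNA comparison asks whether transcripts with 3' end sites in cultured B cells changed in germinal centre B cells in which Ptbp1 was deleted. Of the 1617 genes, 1600 were matched to the count tables by symbol and 12 by synonym, and 1593 passed the filter on low counts. Library totals over genes ran from 26823882 to 34240096 reads. Ptbp1 itself was between 353 and 486 CPM in the 8 control libraries and between 82.5 and 121 CPM in the 8 cKO libraries, and Cd79a, the locus of Cre, fell in both zones (edgeR log2 fold changes of -0.98 and -1.27, adjusted p = 0.00151 and 9.97e-05). Of 10 germinal centre B cell markers, 9 were tested and 0 were called, and their summed level was 9102 to 10150 CPM in LZ control and 9375 to 10690 CPM in LZ cKO libraries. Dark zone markers summed to 1409 to 1691 CPM in DZ control and 748 to 986.5 CPM in LZ control libraries. Macrophage markers were uneven, and in both zones their sum was higher in the cKO than in the control library of every sort day. The 10 genes summed to 25.3 to 421 CPM in DZ control and 53.2 to 1246 CPM in DZ cKO libraries. In the light zone they summed to 26.7 to 399 CPM in control and 79.8 to 495 CPM in cKO libraries. Their median log2 fold change was 0.717 in the light and 2.2 in the dark zone, and 0 of the 10 were called. Neutrophil markers summed to at most 92.7 CPM, T cell markers to at most 437.5 CPM and plasma cell markers to between 1375 and 11200 CPM in any library. The part of these other cells in the results was not tested. In bulk libraries fewer cells of a type and less RNA per cell cannot be told apart.

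In the fit without a block for sort day, few genes with 3' end sites were called, at a share like that of other expressed genes. In the light zone 25 of 1593 were called by edgeR at adjusted p under 0.05 (1.57%), beside 1.08% of all 15789 genes tested. Of the 25, 15 were higher in cKO cells (0.942%, beside 0.69% of all genes) and 10 lower (0.628%, beside 0.393%). In the dark zone 16 were called (1.0%), beside 0.627% of all genes, 9 of them higher (0.565%, beside 0.31%) and 7 lower (0.439%, beside 0.317%). Upper-quartile scaling split the light zone calls into 14 higher and 14 lower, and the dark zone calls into 9 and 10. Genes with 3' end sites were more highly expressed, with a median average level of 6.55 log2 CPM against 3.86. Among genes of at least 6 log2 CPM the shares were 1.60% against 1.64% of all genes in the light zone and 1.20% against 0.995% in the dark zone. Genes with gene-body sites but none at the 3' end had 1.18% and 1.03% called. Genes with 3' end sites had a median log2 fold change of 0.0022 in the light zone and -0.012 in the dark zone, against 0.019 and 0.011 over all genes. Under upper-quartile scaling the light zone median of these genes turned to -0.0063.

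The fit with the sort day as a block, which uses the pairing of libraries, called more genes. With it edgeR called 133 genes with 3' end sites in the light zone (67 higher and 66 lower, 8.35%), beside 5.5% of all genes, and 72 in the dark zone (31 higher and 41 lower, 4.52%), beside 3.27%. Among genes of at least 6 log2 CPM these shares were 9.42% against 11% in the light zone and 5.31% against 5.14% in the dark zone. DESeq2 called 74 genes with 3' end sites in the light zone (4.7%, beside 4.66% of all genes) and 54 in the dark zone (3.39%, beside 2.74%). All 25 and 16 genes called without the block were called with it, and by DESeq2.

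The amount of iCLIP signal was weakly related to the RNA change. Over the 1593 genes, Spearman's rho between the 3' end cDNA count and the log2 fold change came to -0.077 in the light zone and -0.10 in the dark zone, and to 0.336 between the cDNA count and the average RNA level. These are descriptions across genes, which share libraries and are not independent. From here on, calls are those of the fit without the block unless another fit is named. Of the 198 tested genes with 3' end sites in at least 2 replicate lists, 7 were called in the light zone (3.54%, 4 higher and 3 lower) and 6 in the dark zone (3.03%, 3 higher and 3 lower). The shares over all genes were 1.08% and 0.627%, and 1.64% and 0.995% among those of at least 6 log2 CPM. The median level of the 198 was 7.22 log2 CPM, and whether their share differs from that of other genes was not tested. Of the 12 genes with the largest 3' end counts, Fcgr2b alone was called. Pou2af1 was at -0.02 ± 0.14 in the light zone and -0.23 ± 0.14 in the dark zone (log2 fold change ± SE, edgeR adjusted p = 0.982 and 0.607), and Lars2 at 0.22 ± 0.37 and -0.04 ± 0.37 (edgeR adjusted p = 0.877 and 0.983).

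**Figure D4:**
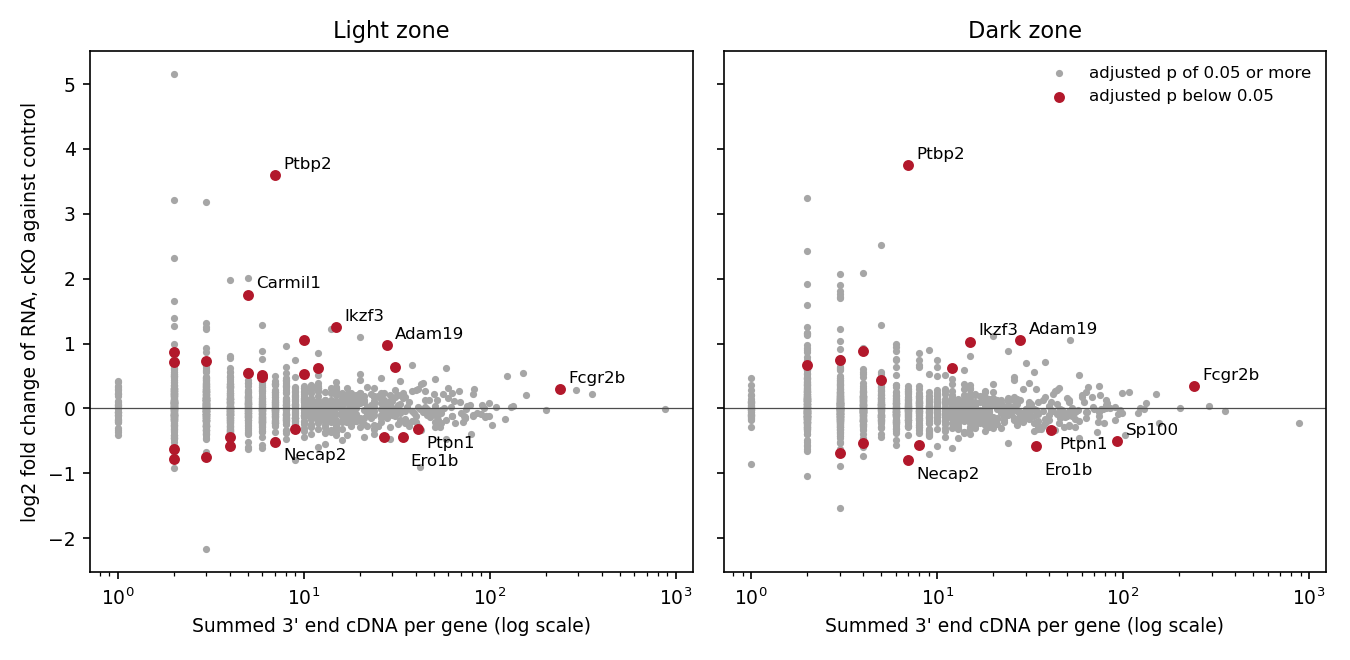
RNA change in cKO against control cells (y axis, edgeR log2 fold change) against the summed 3' end cDNA count of each of 1593 genes (x axis, log scale) in the light and the dark zone. Red points are the 25 and 16 genes with adjusted p under 0.05 in the fit without a sort-day block. Fcgr2b, at 240 cDNAs, is the one among the 12 genes with the most signal.

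Fcgr2b rose in both zones. Fcgr2b stood at 221, 212, 222 and 219 CPM in the 4 light zone controls, in order of sort day, and at 249, 277, 268 and 276 CPM in the matching cKO libraries. Fcgr2b stood at 169.6, 165, 188 and 175 CPM in the 4 dark zone controls, in order of sort day, and at 213, 227, 207 and 237 CPM in the matching cKO libraries. No cKO library overlapped the controls of its zone. Log2 fold changes were 0.29 ± 0.07 and 0.34 ± 0.07 in the light and dark zones (edgeR adjusted p = 0.0436 and 0.0241). The call ended in 7 of 8 cases in the light zone when 1 library was left out, with an edgeR adjusted p of up to 0.131, the exception being cKO replicate 1. In the dark zone it ended in 5 of 8 cases, with an adjusted p of up to 0.098, the exceptions being control replicate 3 and cKO replicates 1 and 3. Macrophages also express Fcgr2b. On sort day 3, when the macrophage markers were lowest (26.7 and 79.8 CPM in LZ control and cKO, 25.3 and 53.2 CPM in DZ control and cKO), Fcgr2b was at 222 CPM in LZ control and 268 CPM in LZ cKO cells, and at 188 CPM in DZ control and 207 CPM in DZ cKO cells, the smallest dark zone difference of the 4 days. The part of macrophages in these values was not tested.

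Several genes with moderate 3' end signal fell. Sp100, a component of nuclear bodies with close relatives in its gene family, had 47 sites and 93 cDNAs, with a highest site of 20 cDNAs 242 nt from its end. Sp100 stood at 419.7, 498, 522 and 477 CPM in the 4 dark zone controls, in order of sort day, and at 302, 366, 323 and 361 CPM in the matching cKO libraries. It fell there (-0.50 ± 0.09, edgeR adjusted p = 0.0132) and was at 0.01 ± 0.09 in the light zone (edgeR adjusted p = 0.975), and the interaction of zone and genotype was not called (edgeR adjusted p = 1.0). Leaving out DZ control replicate 3 took its adjusted p to 0.0518. Ptpn1, the tyrosine phosphatase PTP1B, had 22 sites and 41 cDNAs. Ptpn1 stood at 333, 338, 317 and 348 CPM in the 4 light zone controls, in order of sort day, and at 269.6, 264, 259 and 278 CPM in the matching cKO libraries. It fell by 0.32 ± 0.07 log2 units (edgeR adjusted p = 0.0365), and its dark zone change was -0.34 ± 0.07 (edgeR adjusted p = 0.0362). The light zone call was lost without any 1 of the 8 libraries (edgeR adjusted p of 0.0682 to 0.131), and the dark zone call in 6 of 8 cases (up to 0.138).

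Ero1b, an oxidase of the endoplasmic reticulum that drives disulphide bond formation, had 25 sites and 34 cDNAs. Ero1b stood at 289.9, 256, 244 and 266 CPM in the 4 dark zone controls, in order of sort day, and at 193, 169, 187 and 157 CPM in the matching cKO libraries. Its log2 fold change was -0.58 ± 0.09 there (edgeR adjusted p = 0.00498, kept without any 1 library) and -0.44 ± 0.09 in the light zone (edgeR adjusted p = 0.0283, lost in 6 of 8 cases, up to 0.094). Necap2, an endocytic adaptor of clathrin coats, had 6 sites, all of its gene-body sites. Necap2 stood at 191, 170.1, 167 and 180.3 CPM in the 4 dark zone controls, in order of sort day, and at 106, 118, 80.5 and 104 CPM in the matching cKO libraries. Its log2 fold changes were -0.51 ± 0.10 and -0.79 ± 0.10 in the light and dark zones (edgeR adjusted p = 0.028 and 0.00124). Its dark zone call was kept without any 1 library and its light zone call was lost in 7 of 8 cases (up to 0.0814).

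Ptbp2 and Ikzf3 had the changes that held most widely, with few 3' end sites. Ptbp2, the neuronal paralogue of PTBP1 whose mRNA PTBP1 targets for decay through exon skipping, had 5 sites and 7 cDNAs at its 3' end, in 0 replicate lists, which were 3.62% of its gene-body sites. Ptbp2 stood at 16.7, 13.7, 8.60 and 13.6 CPM in the 4 light zone controls, in order of sort day, and at 126, 143, 186 and 182 CPM in the matching cKO libraries. Its log2 fold changes were 3.60 ± 0.22 and 3.75 ± 0.22 in the 2 zones (edgeR adjusted p = 2.05e-07 and 1.16e-07). Ikzf3, the lymphoid transcription factor Aiolos, had 9 sites and 15 cDNAs, 3.37% of its gene-body sites. Ikzf3 stood at 415, 365, 384 and 426 CPM in the 4 light zone controls, in order of sort day, and at 952, 952, 883 and 1002 CPM in the matching cKO libraries. Ikzf3 stood at 427, 429, 442 and 502 CPM in the 4 dark zone controls, in order of sort day, and at 863, 891, 901 and 1024 CPM in the matching cKO libraries. It rose by 1.25 ± 0.08 and 1.03 ± 0.08 (edgeR adjusted p = 3.65e-07 and 4.29e-06). Both genes were called in both zones without any 1 library and without any 1 sort day. With males or females alone Ikzf3 lost its dark zone call.

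**Figure D5:**
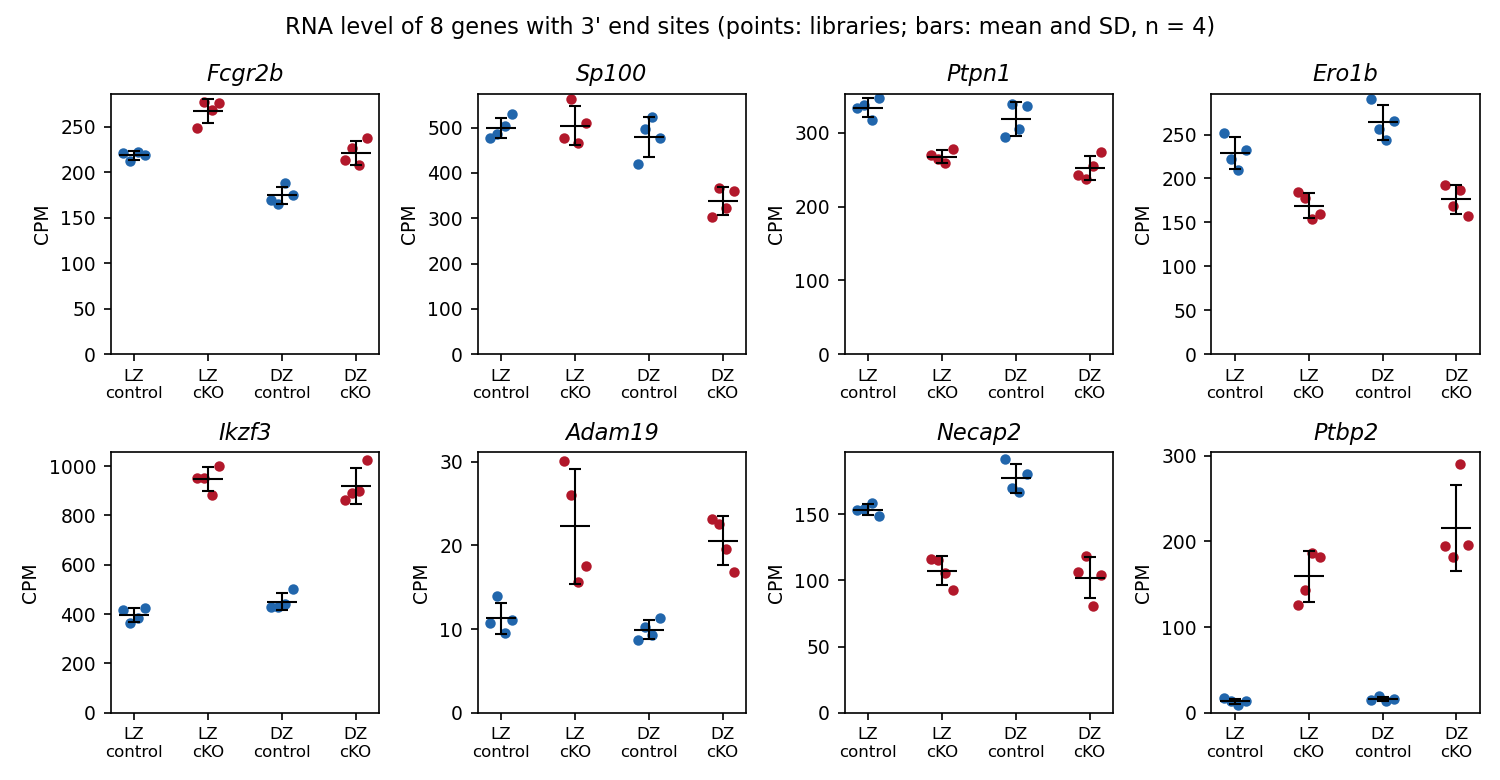
RNA level in CPM (y axis) of 8 genes with 3' end sites in the 4 libraries of each group (x axis), with mean and SD (n = 4). Fcgr2b, Ikzf3, Adam19 and Ptbp2 lie higher and Ptpn1, Ero1b and Necap2 lower in cKO libraries of both zones, and Sp100 lies lower in the dark zone.

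Among the other 21 called genes, 13 rose and 8 fell in 1 or both zones. Trim34a, with 21 sites and 31 cDNAs, Gbp4, with 12 cDNAs, and the RNA sensor gene Ddx58, with 10 cDNAs, rose in the light zone. Their light zone log2 fold changes ± SE with edgeR adjusted p were Trim34a (0.64 ± 0.10, 0.00539), Gbp4 (0.62 ± 0.12, 0.0255) and Ddx58 (1.05 ± 0.23, 0.0403). The DNA sensor gene Aim2 fell in the light zone, at -0.75 ± 0.12 (adjusted p = 0.00659). Trim34a, Gbp4 and Aim2 belong to families with close copies, so reads may have been divided between copies. Leaving out 1 library ended the light zone call of Gbp4 in 7 and of Ddx58 in 6 of 8 cases (edgeR adjusted p up to 0.0802 and 0.128). Gbp4 and Aim2 were called in the dark zone as well, at 0.62 ± 0.12 (adjusted p = 0.0337) and -0.68 ± 0.12 (adjusted p = 0.014), and lost that call in 7 and 2 of 8 cases (up to 0.0807 and 0.0564).

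Gsn, the actin-severing protein gelsolin, had 2 sites of 1 cDNA, all of its gene-body sites. Gsn stood at 669, 673, 777 and 730.0 CPM in the 4 light zone controls, in order of sort day, and at 1069.5, 1175, 1177 and 1254 CPM in the matching cKO libraries. Its rise was 0.71 ± 0.12 there and 0.67 ± 0.12 in dark zone cells (edgeR adjusted p = 0.00718 and 0.0125, the latter 0.0514 without DZ cKO replicate 2). Carmil1, a regulator of actin capping, and Coro7, a coronin of the Golgi, rose in the light zone, at 1.75 ± 0.36 (adjusted p = 0.0298) and 0.54 ± 0.09 (adjusted p = 0.00895) by edgeR. The dark zone value of Coro7 was 0.44 ± 0.09 (adjusted p = 0.041), lost in 6 of 8 cases. Vasp, which promotes actin filament growth, fell in the dark zone at -0.56 ± 0.09 (adjusted p = 0.00945), and Icam2, an adhesion molecule, fell in both at -0.59 ± 0.09 (adjusted p = 0.00456) and -0.54 ± 0.09 (adjusted p = 0.00815). Adam19, a membrane metalloprotease with 21 sites and 28 cDNAs, rose in both at 0.98 ± 0.20 (adjusted p = 0.0283) and 1.05 ± 0.20 (adjusted p = 0.0232). Leaving out 1 library ended the call of Carmil1 in 7 of 8 cases (up to 0.104) and of Adam19 in 5 of 8 in each zone (up to 0.102 and 0.0881).

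In the light zone Jpt1, with 23 sites that were 79.3% of its gene-body sites, Macroh2a1, a histone variant, Cbx1, the heterochromatin protein HP1 beta, Gmds, an enzyme of GDP-fucose synthesis, and Hsd17b7, an enzyme of cholesterol synthesis, fell by edgeR with log2 fold changes from -0.78 to -0.32. Each of these 5 calls was lost in 6 to 8 of 8 cases when 1 library was left out. The lysosomal channel gene Mcoln1, the Ras regulator Rasal3, the ubiquitin ligase Herc3, the centriole protein Cep164 and Cmah, which makes the sialic acid Neu5Gc, rose in the light zone, at 0.49 to 0.87. Of these, Cmah and Cep164 kept the call without any 1 library, Herc3 lost it without LZ cKO replicate 2 (edgeR adjusted p = 0.0533), and Mcoln1 and Rasal3 lost it in 7 and 6 of 8 cases. Cmah rose in the dark zone as well (0.75 ± 0.11, edgeR adjusted p = 0.00407), as did the DNA methyltransferase gene Dnmt3a (0.88 ± 0.18, adjusted p = 0.0358, lost in 5 of 8 cases, up to 0.126).

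Over both zones 28 genes were called, 13 of them in both and with the same sign in each. Of the 25 and 16 calls, 4 and 3 changed at least 2-fold. Of the 28, 8 had 3' end sites in at least 2 replicate lists and 12 in none, and their median 3' end count was 7 cDNAs, beside 5 over all tested genes of the set. Of the 28, none with a known strand had antisense sites only. The strand of Ikzf3, Gbp4, Necap2, Carmil1 and Icam2 was not known. Leaving out each of the 8 libraries of a zone in turn kept 9 of the 25 light zone calls and 7 of the 16 dark zone calls in every case. Leaving out a whole sort day kept fewer: Ikzf3 and Ptbp2 in both zones and Necap2 in the dark zone were the calls that none of the 4 omissions ended, and without sort day 4 edgeR called 2 and 3 genes of the set. No interaction of zone and genotype was called by edgeR among the 1593 genes (43 at unadjusted p under 0.05) or among all genes (0.0%, 466 at unadjusted p under 0.05), and DESeq2 called 4 among all genes.

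Gene lists showed which functions the 3' end sites reached. Calls in these lists are those of the fit without a block for sort day, and list members called with the block were not counted here. Over all genes tested that fit called 1.08% in the light and 0.627% in the dark zone. The lists are small beside these shares, so their counts of called genes are not read as results about these functions. The 11 of 24 PTB family and PTBP1-regulated genes with 3' end sites held 116 cDNAs, with Raver1 (26), Mbnl1 (18) and Hnrnpl (15) first, and of these 11 only Ptbp2 was called. In the lists of hnRNP proteins (7 of 24 genes with 3' end sites, 224 cDNAs, led by Hnrnpm and Hnrnpk) and of SR and core splicing factors (13 of 27, 232 cDNAs, led by Sf1 and U2af2) 0 genes were called in either zone. The median log2 fold change of those with 3' end sites was -0.17 and -0.09 in the light zone, beside -0.18 and -0.13 over the whole lists. Genes of 3' end cleavage and polyadenylation had few sites (3 of 22 genes, 35 cDNAs, Papola with 22), and proteins of mRNA decay and of 3' untranslated regions had more (11 of 29, 176 cDNAs, Khsrp with 99). Again 0 genes of these lists were called in the fit without the block.

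B cell genes held the most signal. B cell transcription factors (18 of 32 genes) held 1193 cDNAs, mainly through Pou2af1, followed by Runx3 (58) and Ikzf1 (38), and of the 18 only Ikzf3 was called. B cell receptor and coreceptor genes (15 of 34) held 503 cDNAs, and of the 15 only Fcgr2b was called. Cd79a, Cr2 and Spib, called members of these lists, had no 3' end site, and whether their spans could hold one under the rule was not checked. The lists of the NF-kB pathway (8 of 22 genes, 81 cDNAs), the actin cytoskeleton (17 of 28, 399 cDNAs, Msn with 91), MHC presentation (2 of 16, 61 cDNAs, H2-Eb1 with 55), the unfolded protein response (10 of 18, 181 cDNAs, Canx with 96), the cell cycle (9 of 28, 199 cDNAs, Kif11 with 62), BCL2 family and death regulators (4 of 18, 18 cDNAs), and glycolysis and mTORC1 (7 of 26, 70 cDNAs) had 0 called genes with 3' end sites in either zone. Of 18 interferon-stimulated genes 2 had 3' end sites, Ddx58 and Parp14, and Ddx58 was called. Irf7, Oas3, Oasl2 and Xaf1 of that list were called without a 3' end site, with the same limit. Over these lists the light zone median of the members with 3' end sites ranged from -0.17 for hnRNP proteins to 0.78 for the 2 interferon-stimulated genes. The whole lists had similar shifts, at -0.18 for hnRNP proteins and 0.59 for interferon-stimulated genes, beside 0.019 over all genes tested. Markers of macrophages, T cells, neutrophils and the dark zone had 0 genes with a 3' end site, and these lists were not reduced to eligible spans either.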

How the data were processed

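RNA was measured in 16 libraries and PTBP1 sites in 5 iCLIP replicates. The deposited RNA values are raw counts per Ensembl gene. The submitters' processing notes name HISAT2, HTSeq and Trim Galore 0.4.2, with the build GRCm38. Whether counting used strand was not given in the sources used here. Lines that name no gene (41.4% to 49.8% of entries) were left out. The deposited score of each iCLIP site is a signed count of cDNA hits, per the file headers. Per the file headers, sites passed a false discovery rate of 0.05 from 100 permutations within 15 nt, on mm10 with Ensembl 75, and Bowtie is named in the submitters' processing notes. How PCR duplicates were treated was not stated there, and no control immunoprecipitation was used here.

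Sites were placed in RefSeq spans (GRCm38.p6), and gene strands came from the promoter table. Counts were fitted with edgeR 4.0.16 in R 4.3.3 (minimum count 10, TMM, robust quasi-likelihood, all 16 libraries in 1 fit, BH adjustment over 15789 genes). CPM values are TMM-scaled. The common coefficient of variation was 40.3%, and the fit was tested on simulated data. DESeq2 1.42.0 was an alternative. Python 3.11.15 placed the sites. Replicate numbers are sort days per the labels, so libraries are paired. Same-number deviations correlated at 0.0944 to 0.39, in 24 of 24 cases best with their own number. No libraries of a group agreed within sampling noise (chi-square per degree of freedom 22.2 to 167), and every library is a pool of mice, so p-values measure the spread between pools.

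Genes were named by rule: the 12 largest 3' end counts, the 6 with most sites, the 10 highest sites in all 5 lists, called genes of at least 3 log2 CPM (up to 10 per direction and zone), called list members, sites at the 2 kb limit and 3 members per list. The sites, lists and rule were chosen with earlier results of these data known. Herc3, Mcoln1 and Rasal3 fall outside the rule and were named after their values were seen, so that each call is accounted for.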

Additional observations from a re-analysis of the deposited data

Results flagged for a closer look

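Among 173 groups of 4 or 5 values examined, 11 had 1 value far from the others, and chance gives about 1 in 20. Of these, 2 concern replicate list 3 of the iCLIP data, which had 5.86% of its gene-body sites at the 5' end of spans (2.57% to 3.32% in the other lists) and 7.04% antisense sites among its 3' end sites (2.15% to 3.55% in the others). The other 9 are RNA levels. In dark zone cKO library 3, Ptbp2 was at 290.0 CPM (182 to 195 in the others), Nucks1 at 293 CPM (239 to 244), Gbp4 at 55.2 CPM (42.2 to 44.4) and Rasal3 at 238 CPM (311 to 324). In dark zone cKO library 2, Vasp was at 176 CPM (131 to 134). In dark zone control libraries, B4galt1 was at 20.5 CPM in library 1 (26.0 to 26.3) and Herc3 at 71.9 CPM in library 3 (91.5 to 93.3). In the light zone, Aim2 was at 32.3 CPM in cKO library 2 (26.2 to 26.9) and Cmah at 71.9 CPM in control library 3 (89.0 to 92.2).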

How the results depend on the processing

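With the sort-day replicate block, edgeR called 868 genes in the light and 517 in the dark zone in place of 171 and 99, and 133 and 72 with 3' end sites in place of 25 and 16. DESeq2 called 564 and 432, with 74 and 54 of the set, and 4 interactions in place of 0. With the libraries of 1 zone alone the counts were 98 and 52, with 14 and 9 of the set. Males alone gave 3 and 2 (2 and 1 of the set) and females alone 9 and 4 (2 and 1). Without a filter on low counts the light zone count was 102. Leaving out a library or a sort day gave 17 to 137 and 23 to 100 genes, with 2 to 18 and 3 to 14 of the set, and 0 interactions; all 4 minima came without sort day 4. Restricting the set to sites of at least 10 cDNAs left 1 and 2 calls among 38 genes tested, to sites in at least 2 lists 4 and 4 among 132, and, chosen after seeing the data, to genes of at least 6 log2 CPM 16 in the light zone among 998. These sets are smaller than the 1593 genes, so the counts do not compare shares. Of 820 tests of the 41 calls by name, 445 kept the call, 375 lost it and 0 turned sign.

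Within 1 kb or 5 kb the set was 6925 or 23170 sites, and 2501 genes within 5 kb. At 10 cDNAs or more it was 83 sites in 39 genes. Sites found in at least 1 of 4 lists, each list left out in turn, numbered 2169 to 3217 in 420 to 574 genes. The difference between the ends was 1.30 to 2.27 percentage points without 1 list. At 10 cDNAs or more it was -0.219 over the lists, while the pooled list held 83 such sites at the 3' end and 26 at the 5' end. Support in at least 2 lists was 4.52% at the same base, 12.4% within 5 nt and 15.9% within 15 nt. The median score was 1 in each list. The cause of these changes was not tested, beyond the smaller number of samples or sites. Low scores limit the sites: 9146 of 12268 rest on 1 cDNA. The iCLIP cells were cultured B cells, and sites in germinal centre cells were not analysed here.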
